A study of Homo sapiens with 8 samples.

Results

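ATF4 and 9 genes that it is known to switch on when amino acids run short were followed across sorafenib-sensitive and sorafenib-resistant hepatoma cells. The 10 genes were ATF4, SESN2, INHBE, DDIT3, TRIB3, ASNS, CHAC1, ATF3, PSAT1 and SLC3A2. They were picked by symbol out of 63241 gene identifiers, with values from these libraries already known, so their differences between groups are given as a description, and p-values enter only as a limit in the counts of genes called. All 10 entered the tests, for which a gene had to reach 1 FPKM in 2 or more libraries, as 15173 genes did. For CHAC1, only the libraries in which it was high met that limit.

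HepG2 and Huh7 are human liver cancer cell lines. Each was sequenced as wild-type cells (WT, labelled as control) and as its sorafenib-resistant derivative (SR, labelled with sorafenib), which the authors raised from the parental line under rising concentrations of this kinase inhibitor. Each line in each state gave 2 libraries, so 4 groups held 8 libraries in all, and the labels place all of them in a single batch. Nothing states whether the replicates were separate cultures, whether the SR lines are single clones or whether the drug was on the cells at harvest, so any p-value measures the spread between these libraries alone. Levels are in FPKM (fragments scaled by sequencing depth and by transcript length), so levels of different genes can be set side by side.

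When uncharged tRNA accumulates, the kinase GCN2 phosphorylates the translation factor eIF2α, and the same site is phosphorylated by PERK during stress of the endoplasmic reticulum (ER), by PKR and by HRI. General translation then slows while the ATF4 mRNA, held back by short upstream reading frames in unstressed cells, is translated more. ATF4 protein binds DNA as a partner of C/EBP factors and induces genes for amino acid synthesis, uptake and charging onto tRNA, along with regulators of growth and death. The level of ATF4 mRNA and the activity of ATF4 protein are therefore separate quantities, and only mRNA was measured here.

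In Huh7, all 10 genes had a lower fitted level in SR than in WT cells, with a median log2 fold change of -1.34. The median difference was -0.65 between the replicate 1 libraries (9 of 10 lower) and -2.03 between the replicate 2 libraries (10 of 10 lower), and without Huh7 WT replicate 2 the fitted median was -0.89. In HepG2, 5 were lower and 5 were higher, with a median of -0.05. Over all 15173 genes tested, 55.3% were lower in Huh7 SR and 52.2% in HepG2 SR. SESN2, which encodes a leucine-binding inhibitor of the growth kinase complex mTORC1, was the only one of the 10 with all 4 SR libraries below all 4 WT libraries, an order held by 2.17% of the genes tested. ATF4 itself was nearly level. In RNA from bulk cultures, fewer cells that express a gene and less RNA per cell cannot be told apart.

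The libraries did not group by their labels, which bears on every comparison. The labels were kept as given, whether any libraries were exchanged was not tested, and a line or state named here means the libraries labelled so. Over the genes tested, 5 libraries (both of HepG2 WT, the first of HepG2 SR and the second of each Huh7 group) correlated with each other at 0.914 to 0.977. Huh7 WT replicate 1 and Huh7 SR replicate 1 correlated at 0.965 with each other and at 0.731 to 0.783 with those 5, and the second HepG2 SR library was unlike either set (0.775 to 0.819 and 0.815 to 0.846). Of 10 hepatocyte and hepatoma markers, 9 or 10 reached 1 FPKM in each library, and their summed level was 6382 and 7613 FPKM in HepG2 WT, 8070 and 7843 in HepG2 SR, 639.5 and 1771 in Huh7 WT, and 880.8 and 8222 in Huh7 SR. The fetal liver protein AFP, a defining marker of these hepatomas, was at 1.07 to 2.55 FPKM in 3 of the 4 Huh7 libraries and at 1100 in HepG2 SR replicate 2, against 18.2 to 35.8 in the other 4. Of 10 markers of other liver cells, 3 to 6 reached 1 FPKM per library and 0 to 4 were at 0, with summed levels of 26.97 to 915.7 FPKM in HepG2 and 14.61 to 380.8 in Huh7, to which KRT19 gave up to 760 FPKM, while the leukocyte marker PTPRC did not exceed 0.0258. In Huh7 the replicate 1 libraries formed one set and the replicate 2 libraries belonged to another, so SR and WT are also compared below between libraries of equal number, which in Huh7 is a comparison inside a set. In HepG2 this holds for replicate 1 but not for replicate 2, and the labels do not tie equal numbers together.

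The composite element to which ATF4 binds with a C/EBP partner has the letters TGATGNAA. These letters, read on either strand, occur in a promoter window of 4 of the 9 genes that have one in the RefSeq set (250 bases before to 50 after a start, GRCh38.p14). The 9 genes have 17 windows. The letters occur in 3.62% of all 35116 windows, in 4.46% of all 27305 genes with a window and in 2.66% of the 10571 tested genes with one. Apart from ATF4 itself, the genes were followed as known ATF4 targets, so nothing is read from the count. The 4 matches are shown because ASNS, CHAC1, ATF3 and SLC3A2 are discussed below by their levels. Each is printed 5′ to 3′ along the strand of its gene, with the 8 matching bases in capitals and positions counted from the RefSeq start of that window.
ASNS, chr7:97872458-97872487, minus strand, match from -68 to -61: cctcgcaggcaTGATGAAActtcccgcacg
CHAC1, chr15:40953251-40953280, plus strand, match from -209 to -202: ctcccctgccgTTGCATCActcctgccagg
ATF3, chr1:212565205-212565234, plus strand, match from -191 to -184: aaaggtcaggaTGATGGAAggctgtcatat
SLC3A2, chr11:62881725-62881748, plus strand, match from 38 to 45: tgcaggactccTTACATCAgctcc

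The start used for SLC3A2 lies 25597 bases inside the gene as GENCODE release 29 places it, and the window at the first of its 3 RefSeq starts does not hold these letters, whereas the starts used for ASNS, CHAC1 and ATF3 lie 134, 509 and 73 bases inside theirs. ASNS and ATF3 carry the letters on the strand of the gene and CHAC1 and SLC3A2 on the opposite one. CHAC1 alone of the 9 has the stricter TGATGCAA, which is contained in the first motif and occurs in 0.866% of windows. The ASNS, CHAC1 and SLC3A2 matches overlap exons of those genes in GENCODE release 29, while the ATF3 match lies outside its exons. The palindromic cyclic AMP element TGACGTCA was in a window of 0 of the 9 genes, against 3.78% of the tested genes with a window and 1.85% of all windows. A match of letters is a description of the sequence, and no binding was measured.

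ATF4 (chr22:39519695-39522685, plus strand), the activating transcription factor at the head of the response, had 150 and 197 FPKM in the HepG2 WT libraries and 185 and 255 in those of HepG2 SR. In Huh7 it stood at 229 and 229 in WT and at 235 and 203 in SR. Its highest and lowest libraries differed 1.7-fold, the narrowest range of the 10 genes, and WT and SR overlapped in both lines. The log2 fold change was 0.33 ± 0.33 (SE) in HepG2 and -0.07 ± 0.33 in Huh7. ATF4 was among the most abundant mRNAs, above 98.6% of the genes tested by mean level.

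SESN2 (chr1:28259527-28282491, plus strand) was at 9.96 and 8.88 FPKM in HepG2 WT against 6.09 and 5.35 in HepG2 SR. In Huh7 it was at 19.6 and 32.8 FPKM in WT against 6.18 and 3.1 in SR. No SR library reached any WT library, in either line. The ratio of WT to SR means was 1.65 in HepG2 (9.42 ± 0.762 against 5.72 ± 0.525 FPKM, SD, n = 2 libraries each) and 5.64 in Huh7 (26.2 ± 9.33 against 4.64 ± 2.18). Fitted log2 fold changes were -0.63 ± 0.42 (SE) and -2.28 ± 0.42. Within Huh7 the WT library exceeded the SR library 3.16-fold for replicate 1 and 10.6-fold for replicate 2, so the fall was present inside both sets of libraries.

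DDIT3 (chr12:57516588-57521737, minus strand) encodes CHOP, a factor that ATF4 induces and that promotes death in prolonged ER stress. It was flat in HepG2, at 10.2 and 10.1 FPKM in WT and 12.8 and 10.1 in SR. Huh7 WT cells held 32.1 and 43.8 FPKM and Huh7 SR cells 18.8 and 9.08. Both Huh7 WT libraries thus lay above every other library, and Huh7 SR fell to or toward the HepG2 level, with a log2 fold change of -1.45 ± 0.42 against 0.15 ± 0.42 in HepG2. The DDIT3 gene overlaps MARS1, the methionyl-tRNA synthetase gene, by 982 bases and MBD6 by 1028 bases on the opposite strand, and whether reads were assigned by strand is not given in the sources used here. MARS1 was at 161 and 110 FPKM in Huh7 WT and 115 and 40 in Huh7 SR, and without strand its reads in the overlap could not be told apart from those of DDIT3.

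ATF3 (chr1:212565334-212620777, plus strand) encodes a stress-induced repressor and activator of the same bZIP family. Its level was 23 and 17.4 FPKM in HepG2 WT and 11 and 4.34 in HepG2 SR. Huh7 WT libraries had 17 and 65.8 FPKM, and Huh7 SR libraries had 4.08 and 19.7. ATF3 was lower in SR between the libraries of equal number, 4.16-fold and 3.34-fold in Huh7 and 2.1-fold and 4.01-fold in HepG2, where the second value sets a library of the similar 5 against the HepG2 SR library that stood apart. The Huh7 groups nevertheless overlapped, because the replicate 2 SR library was above the replicate 1 WT library. Log2 fold changes were -1.40 ± 0.87 in HepG2 and -1.76 ± 0.87 in Huh7, the latter -0.74 without Huh7 SR replicate 1.

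TRIB3 (chr20:362835-397559, plus strand), a pseudokinase that restrains AKT and feeds back on ATF4, was at 60.7 and 57.2 FPKM in HepG2 WT and 94.9 and 25.8 in HepG2 SR. Huh7 WT gave 19.2 and 271 FPKM, and Huh7 SR gave 16.6 and 55.7. The Huh7 difference of -1.23 ± 1.25 was larger in replicate 2, in which WT exceeded SR 4.86-fold against 1.16-fold in replicate 1. Without Huh7 WT replicate 2 its sign turned, to 0.65.

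INHBE (chr12:57452323-57459280, plus strand), the liver-enriched activin beta-E subunit, lies 57307 bases from DDIT3 on the same chromosome. HepG2 WT had 12.5 and 32.9 FPKM and HepG2 SR 17 and 14.2. In Huh7 the WT libraries were at 12 and 60.8 FPKM and the SR libraries at 3.06 and 9.92. INHBE was lower in Huh7 SR by 3.92-fold in replicate 1 and by 6.13-fold in replicate 2 (log2 fold change -2.09 ± 0.86), and the fitted value was -0.96 without Huh7 WT replicate 2 and -3.21 without Huh7 WT replicate 1. In HepG2 it was higher in SR for replicate 1 and lower for replicate 2. Its family member INHBC, another liver activin subunit, was at 0.292 and 1.08 FPKM in Huh7 WT and at 0.167 and 3.94 in Huh7 SR.

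CHAC1 (chr15:40952962-40956519, plus strand), a γ-glutamylcyclotransferase that breaks down glutathione, followed the sets of libraries and not the WT and SR labels. HepG2 WT libraries had 0.134 and 0.108 FPKM, and HepG2 SR libraries 0.0278 and 12.4. Huh7 WT libraries were at 46.6 and 0.0674 FPKM and Huh7 SR libraries at 29.5 and 0.0469. The 3 libraries above 10 FPKM were those that stood apart from the 5 similar ones, and in the 5 the gene did not exceed 0.134. Its fold changes (1.73 ± 2.24 in HepG2 and -0.34 ± 2.24 in Huh7) therefore carried the widest errors of the 10 genes. Leaving out Huh7 WT replicate 1 moved the Huh7 value to 2.40.

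Of the amino acid enzymes, ASNS (chr7:97852118-97872542, minus strand) makes asparagine from aspartate and glutamine. It was at 14.7 and 57.6 FPKM in HepG2 WT and 33 and 61.1 in HepG2 SR. Huh7 WT cells had 128 and 107 FPKM and Huh7 SR cells 86.4 and 27.5. Both Huh7 WT values exceeded both SR values (log2 fold change -1.24 ± 0.77), by 1.49-fold in replicate 1 and 3.87-fold in replicate 2. The fitted value was -0.43 without Huh7 SR replicate 2 and -2.05 without Huh7 SR replicate 1. PSAT1 (chr9:78297143-78330093, plus strand), the aminotransferase of serine synthesis, was at 15.9 and 157 FPKM in HepG2 WT, 149 and 167 in HepG2 SR, 205 and 118 in Huh7 WT, and 130 and 106 in Huh7 SR. Apart from HepG2 WT replicate 1, in which ASNS and PSAT1 both had their lowest value, PSAT1 varied between 106 and 205 FPKM. The higher PSAT1 level fitted in HepG2 SR (1.62 ± 0.94) rested on that library and was 0.01 without it, and the ASNS value moved from 0.60 ± 0.77 to -0.35.

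SLC3A2 (chr11:62856102-62888875, plus strand) encodes the CD98 heavy chain, which carries the leucine transporter SLC7A5 and the cystine transporter SLC7A11 to the cell surface. HepG2 WT libraries had 186 and 130 FPKM and HepG2 SR libraries 125 and 132. In Huh7 the level was 152 and 636 FPKM in WT and 106 and 98.6 in SR. The log2 fold change in Huh7 was -1.59 ± 0.64, with WT above SR by 1.43-fold in replicate 1 and 6.45-fold in replicate 2, and without Huh7 WT replicate 2 it was -0.56 and without Huh7 WT replicate 1 it was -2.63. Its light chains are given beside it. SLC7A5 was at 199 and 198 FPKM in HepG2 WT, 147 and 27.3 in HepG2 SR, 244 and 104 in Huh7 WT and 55.8 and 106 in Huh7 SR. SLC7A11 was at 2.59 and 1.44 FPKM in HepG2 WT, 5.31 and 7.09 in HepG2 SR, 6.58 and 26.5 in Huh7 WT and 7.91 and 4.19 in Huh7 SR. The GENCODE start of SLC3A2 lies 188 bases from that of SNHG1, a noncoding host gene of small nucleolar RNAs on the opposite strand, whose log2 fold changes were 2.14 in HepG2 and 0.66 in Huh7.

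**Figure D1:**
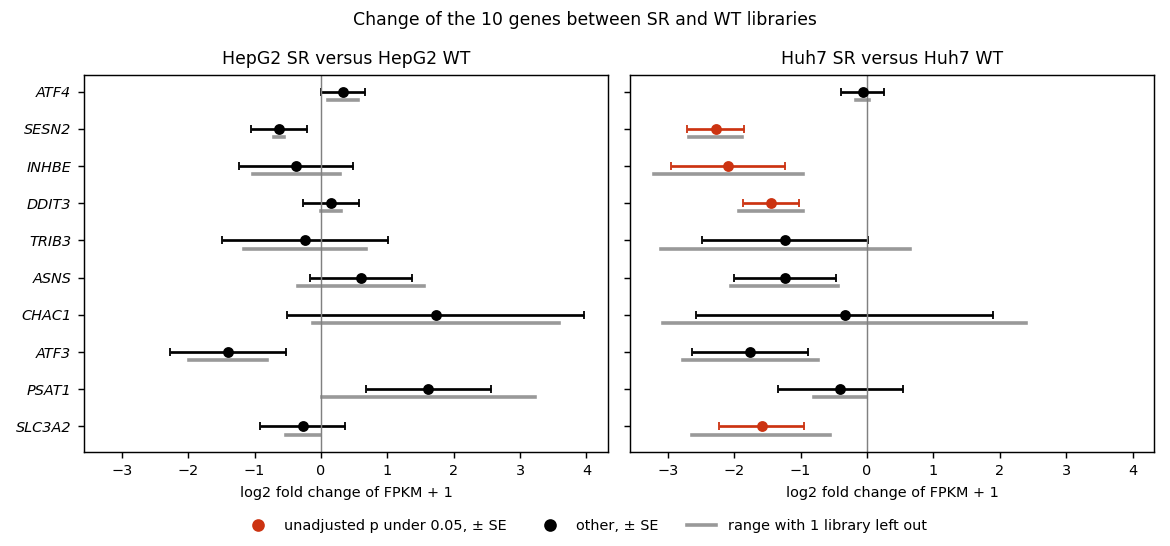
Log2 fold change of FPKM + 1 between SR and WT for each gene in HepG2 (left) and Huh7 (right), with bars of 1 SE on points that are red where the unadjusted limma p was under 0.05; grey lines span the values obtained when each library was left out in turn. In Huh7 the point of each of the 10 genes lies below 0, and the grey lines of ATF4, TRIB3 and CHAC1 cross 0.

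A gene was called when its unadjusted limma p was under 0.05 and its log2 fold change exceeded 0.5 in size, the limits used by the authors. In Huh7, 4 of the 10 genes were called lower in SR (SESN2, INHBE, DDIT3 and SLC3A2) and 0 higher, against 0.923% of all genes tested called lower and 0.942% called higher. In HepG2, 0 of 10 were called, against 1.27% lower and 0.877% higher. Both SR libraries lay below both WT libraries for 5 of the 10 genes in Huh7 (SESN2, INHBE, DDIT3, ASNS and SLC3A2), against 12.9% of all genes, and for 2 in HepG2 (SESN2 and ATF3), against 20.1%. Since these contrasts were known when the genes were picked, nothing is read from the counts. No gene of the 15173 reached an adjusted p under 0.05 in limma in any comparison. Unadjusted p-values under 0.05 numbered 325 for HepG2, 283 for Huh7, 669 between the WT lines and 92 for the difference in change. Each of these counts was below the 0.05 share of 15173 genes that would be reached with no difference between groups. At the unadjusted p and with all 8 libraries kept, SESN2 and DDIT3 were called lower in Huh7 SR in every other setting tried. INHBE was not called with no filter, with quantile normalization or in separate fits. SLC3A2 was not called with no filter, in separate fits or with the replicate number as a term. The INHBE and SLC3A2 calls were also lost when any 1 of the HepG2 libraries was left out. Both were lost too without Huh7 SR replicate 1 (-1.38 for INHBE and -1.65 for SLC3A2), and that of SLC3A2 without Huh7 SR replicate 2. Without Huh7 WT replicate 2, SESN2 was still called and the others were not, with log2 fold changes of -1.23 for DDIT3, -0.96 for INHBE and -0.56 for SLC3A2. DDIT3 was also not called without Huh7 SR replicate 2 (-0.96).

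Between the WT lines, all 10 genes had a higher fitted level in Huh7 than in HepG2, with a median log2 difference of 1.17. Over all genes tested 53.8% were higher, with a median of 0.06. Of the 10, 3 were called higher, SESN2 (1.34 ± 0.42), DDIT3 (1.79 ± 0.42) and ASNS (1.96 ± 0.77), against 1.75% of all genes called higher and 2.66% called lower. The SR minus WT change was lower in Huh7 than in HepG2 for 10 of 10, with a median of -1.62. Over all genes tested 52.4% were lower, with a median of -0.04. The difference was called for SESN2 (-1.65 ± 0.60) and DDIT3 (-1.60 ± 0.59), against 0.237% of all genes called lower and 0.369% called higher. These 2 contrasts share the WT libraries, and the Huh7 SR versus WT contrast uses the same Huh7 WT libraries. None of them is therefore a separate observation. Single libraries did not all follow. TRIB3, INHBE and ATF3 in Huh7 WT replicate 1 (19.2, 12 and 17 FPKM) and CHAC1 in Huh7 WT replicate 2 (0.0674 FPKM) were below both HepG2 WT libraries. Without Huh7 WT replicate 2, 6 of 10 genes were higher in Huh7 WT, among them SESN2 (0.98) and ASNS (2.09), which were then not called. DDIT3 was then at 1.57 and CHAC1 at 5.41. The SESN2 call was also lost when HepG2 WT replicate 1 or 2 was left out. That of ASNS was also lost with no filter and with the replicate number as a term. It was lost as well without HepG2 WT replicate 1 (1.01), HepG2 SR replicate 2 (1.96) or Huh7 WT replicate 1 (1.83). The SESN2 and DDIT3 differences in change were not called when HepG2 WT replicate 1 or 2 or HepG2 SR replicate 1 was left out. The same held without replicate 2 of Huh7 WT or of Huh7 SR, and for SESN2 also without HepG2 SR replicate 2. Over all single omissions these differences ran from -2.05 to -1.24 for SESN2 and from -2.09 to -1.11 for DDIT3. Without Huh7 WT replicate 2 the differences in change of TRIB3 (0.89) and ATF3 (0.59) turned positive, and those of the other genes stayed negative.

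Huh7 WT replicate 2 was the highest library for 6 of the 10 genes, against 19.6% of all genes tested. In that library SESN2, INHBE, DDIT3, TRIB3, ATF3 and SLC3A2 were 3.88 to 5.3 times the median of the other 7 libraries. ASNS, CHAC1 and PSAT1 peaked in Huh7 WT replicate 1 (16.8% of all genes) and ATF4 in HepG2 SR replicate 2 (17.9%), so the 10 did not peak together. Over the 45 pairs of genes, Pearson's r across the 8 libraries had a median of 0.326 and ran from -0.825 for CHAC1 and TRIB3 to 0.854 for DDIT3 and SESN2, with 18 pairs above 0.5 and 12 below 0. ATF4 mRNA correlated best with ASNS (0.83). These values come from 8 libraries in distinct sets and describe them only.

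Across all genes tested, the pattern most like the mean of the 10 was that of ZNF419, a zinc finger gene (r = 0.972 over 8 libraries, with 4.91 FPKM in Huh7 WT replicate 2 and 2.15 to 3.76 in the others). It was followed by PRDM4, SEC24D, ZNF619, TMEM39B, PJA2, SF1 and RNF185, the last at r = 0.943. SEC24D, a coat component of vesicles that leave the ER, was at 57 FPKM in Huh7 WT replicate 2 and at 10.3 to 24.6 elsewhere. For single genes the nearest were NAP1L1 for ATF4 (0.993), RAB3IP for SESN2 (0.969), TMX4 for INHBE (0.977), SLC25A46 for DDIT3 (0.990), FOXK2 for TRIB3 (0.989), MAP2K5 for ASNS (0.980), ODF2L for CHAC1 (0.9996), ENSG00000286614 for ATF3 (0.969), HNRNPA0 for PSAT1 (0.968) and CTU1 for SLC3A2 (0.994). ODF2L shared the on and off pattern of CHAC1, at 9.4, 33.6 and 21.7 FPKM in the 3 libraries that stood apart and at no more than 0.143 in the other 5.

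The rest of the pathway was described through lists of genes by role, starting upstream. The counts below stand against all genes tested, of which 55.3% were lower, 0.923% called lower and 0.942% called higher in Huh7 SR. In HepG2 SR these shares were 52.2%, 1.27% and 0.877%. Of 16 genes for the eIF2α kinases and eIF2 control, 12 were lower in Huh7 SR (median -0.36). Their median difference was -0.03 between the replicate 1 libraries (9 of 16 lower) and -0.75 between those of replicate 2 (14 of 16 lower). Only EIF2AK3, which encodes PERK, was called, at 15.7 and 29.1 FPKM in WT and 7.54 and 8.52 in SR (-1.32 ± 0.48, limma unadjusted p = 0.0284, adjusted p = 1). PPP1R15A, the inducible subunit that ends the eIF2α signal, was at 23.1 and 183 FPKM in Huh7 WT and 8.45 and 20 in Huh7 SR. In HepG2, 0 of the 16 were called (median -0.31).

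Among 14 partners and related bZIP factors, CEBPA and CEBPB were called in opposite directions in Huh7. CEBPB, a partner of ATF4, was at 102 and 124 FPKM in Huh7 WT and 49.3 and 34.8 in Huh7 SR (-1.42 ± 0.41, limma unadjusted p = 0.0106), with 28.1, 40.5, 26.9 and 47.5 across the HepG2 libraries. CEBPA, the factor of the differentiated hepatocyte, was at 12 and 14.5 FPKM in Huh7 WT and 42.9 and 27.4 in Huh7 SR (1.32 ± 0.44, unadjusted p = 0.0213), and at 17.9 and 27.2 in HepG2 WT and 41.5 and 78.2 in HepG2 SR (1.33 ± 0.44, unadjusted p = 0.0204). CEBPA was thus higher in all 4 SR libraries than in the 4 WT libraries, though by little between the closest of them (27.4 against 27.2), an order held by 1.52% of the genes tested. CEBPG, another partner of ATF4, was at 36 and 52.8 FPKM in Huh7 WT against 12.1 and 16.4 in HepG2 WT (1.57 ± 0.49, unadjusted p = 0.0157). Adjusted p-values of these calls were 1 in Huh7, 0.956 in HepG2 and 0.827 between the WT lines.

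The genes that charge tRNA were counted in 2 lists, by whether they are listed as ATF4 targets. All 14 of the listed targets (13 aminoacyl-tRNA synthetases and the tRNA exporter XPOT) had lower fitted levels in Huh7 SR (median -0.77), and 1 was called, WARS1, the tryptophanyl enzyme, at 90.8 and 98.6 FPKM in Huh7 WT and 42.7 and 17.4 in Huh7 SR (-1.75 ± 0.47, limma unadjusted p = 0.00788, adjusted p = 1). Of the 7 synthetase genes not listed, 2 had lower and 5 higher levels (median 0.27), and 0 were called. In HepG2 SR, 11 of the 14 listed genes and 7 of the 7 others were higher (medians 0.39 and 0.44). Within Huh7 the listed genes had a median of -0.30 in replicate 1 (12 of 14 lower) and -1.23 in replicate 2 (14 of 14 lower), and without Huh7 SR replicate 2 the fitted median was -0.26. The 7 not listed had a median of 0.68 in replicate 1 (1 of 7 lower) and of -0.37 in replicate 2 (6 of 7 lower), so both lists were lower in SR in replicate 2. The difference between the 2 lists was not tested.

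Promoter letters were counted in the same 2 lists. A gene can be listed as an ATF4 target because its promoter holds these letters, so the counts describe the lists and nothing is read from them. The letters TGATGNAA were found in 7 of the 11 listed genes with a window (63.6%) and in 0 of the 6 others, against 2.66% of the tested genes with a window. In 6 of the 7 they had the stricter form TGATGCAA, which the sites below show in capitals on the strand of the gene. The NARS1 match reads along the gene and the others on the opposite strand.
AARS1, chr16:70289675-70289704, minus strand, match from -187 to -180: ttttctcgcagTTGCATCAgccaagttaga
CARS1, chr11:3057407-3057436, minus strand, match from -2 to 6: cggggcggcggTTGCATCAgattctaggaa
IARS1, chr9:92293692-92293721, minus strand, match from -13 to -6: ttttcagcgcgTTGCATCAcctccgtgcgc
MARS1, chr12:57488053-57488082, plus strand, match from -4 to 4: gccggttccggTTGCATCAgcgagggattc
NARS1, chr18:57621804-57621833, minus strand, match from 15 to 22: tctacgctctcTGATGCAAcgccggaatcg
TARS1, chr5:33440956-33440985, plus strand, match from 3 to 10: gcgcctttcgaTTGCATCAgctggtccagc

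AARS1, the alanyl enzyme, had levels of 36.5 and 70.7 FPKM in HepG2 WT, 69.7 and 155 in HepG2 SR, 64.8 and 189 in Huh7 WT and 79.8 and 43.6 in Huh7 SR. Its Huh7 groups overlapped. WARS1, the 1 listed gene called, is not among those with a match. Among called genes with a window, the letters were in 4.27% of 117 called lower and 1.14% of 88 called higher in Huh7 SR, and in 2.29% of 131 called lower and 4.88% of 82 called higher in HepG2 SR.

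Amino acid synthesis and one-carbon genes are the wider group to which ASNS and PSAT1 belong. In HepG2 SR, 14 of 16 were higher (median 0.75) and in Huh7 SR 7 of 16 (median -0.31), with 0 called in either line. CTH, which makes cysteine from cystathionine, was at 1.04 and 4.58 FPKM in HepG2 WT, 4.27 and 9.35 in HepG2 SR, 33.3 and 15.7 in Huh7 WT and 23.7 and 2.96 in Huh7 SR, and was called higher in Huh7 WT than in HepG2 WT (2.83 ± 0.95, limma unadjusted p = 0.0215, adjusted p = 0.827). The HepG2 median was 0.42 without HepG2 WT replicate 1, the library in which PSAT1 and ASNS were low. Of 13 amino acid transporters tested, 10 were lower in Huh7 SR (median -0.75) and 0 were called.

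Of 23 other stress signalling targets, 19 were lower in Huh7 SR (median -0.49), against 55.3% of all genes, and 3 were called lower, against 0.923%. Besides CEBPB, which both lists hold, these were UPP1, a uridine phosphorylase, at 22.7 and 65.7 FPKM in WT and 13.5 and 2.27 in SR (-2.53 ± 0.85, limma unadjusted p = 0.0215), and VLDLR, a lipoprotein receptor, at 13.8 and 7.4 in WT and 3.01 and 5.25 in SR (-1.16 ± 0.45, unadjusted p = 0.039), each with an adjusted p of 1. The cytokine GDF15, also a p53 target, stayed abundant, at 397 and 832 FPKM in Huh7 WT and 323 and 711 in Huh7 SR, and was lowest in HepG2 SR replicate 2 at 51.4.

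ER chaperones and the ATF6 and XBP1 arms of the unfolded protein response, which run beside the ATF4 arm, also had lower fitted levels. In Huh7 SR, 19 of 20 were lower (median -0.70) and 6 were called lower (6 of 20, against 0.923% of all genes). The chaperone BiP, encoded by HSPA5, was at 392 and 695 FPKM in Huh7 WT and 199 and 203 in Huh7 SR (-1.37 ± 0.41, limma unadjusted p = 0.0128), and ERN1, the sensor IRE1α, was at 7.25 and 16.4 in WT and 4.65 and 2.92 in SR (-1.35 ± 0.46, unadjusted p = 0.0227), both with an adjusted p of 1. The list peaked in Huh7 WT replicate 2 for 13 of its 20 genes (65%), the library in which 6 of the 10 ATF4 genes peaked. Without that library 13 of 20 were lower and 0 were called, and the median was -0.12 within replicate 1 against -1.18 within replicate 2. In HepG2, 8 of 20 were lower and XBP1 was called higher (0.94 ± 0.32, unadjusted p = 0.0221, adjusted p = 0.956), at 71.9 and 101 FPKM in WT and 176 and 153 in SR.

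SESN2 is also a target of p53, so p53 targets were counted beside it. In HepG2 SR, where SESN2 was 1.65-fold lower, 20 of 20 had lower fitted levels (median -1.38), against 52.2% of all genes tested. Their median was -0.70 between the replicate 1 libraries and -1.90 between those of replicate 2, where the SR library stood apart. Both SR libraries lay below both WT libraries for 6 of the 20, against 20.1% of all genes. TP53I3 alone was called lower (1.27% of all genes), at 112 and 45 FPKM in WT and 29.9 and 15.9 in SR (-1.66 ± 0.62, limma unadjusted p = 0.0337, adjusted p = 0.956). In Huh7 SR, where SESN2 was 5.64-fold lower, 16 of 20 were lower (55.3% of all genes) with a median of -0.23 and 0 were called. CDKN1A, the cell cycle inhibitor p21 and a defining p53 target, was at 452, 175, 138 and 163 FPKM in both HepG2 WT libraries, HepG2 SR replicate 1 and Huh7 WT replicate 2, at 92.2 in Huh7 SR replicate 2, and at 1.96 to 11.3 in the 3 libraries that stood apart. The part of p53 activity in the SESN2 values was not tested.

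Relatives of the 10 genes by sequence or function were counted as well. Of 9 tested, 5 were lower in Huh7 SR (median -0.03) and 0 were called. In HepG2 SR, 7 of 9 were lower and 2 were called lower, against 52.2% and 1.27% of all genes. TRIB1, a pseudokinase related to TRIB3, was at 56 and 52.1 FPKM in WT and 21 and 4.81 in SR (-2.28 ± 0.83, limma unadjusted p = 0.0295). FSTL3, a secreted binder of activins, was at 26.8 and 61.8 in WT and 12.3 and 6.79 in SR (-2.04 ± 0.60, limma unadjusted p = 0.0123). Both calls had an adjusted p of 0.956.

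**Figure D2:**
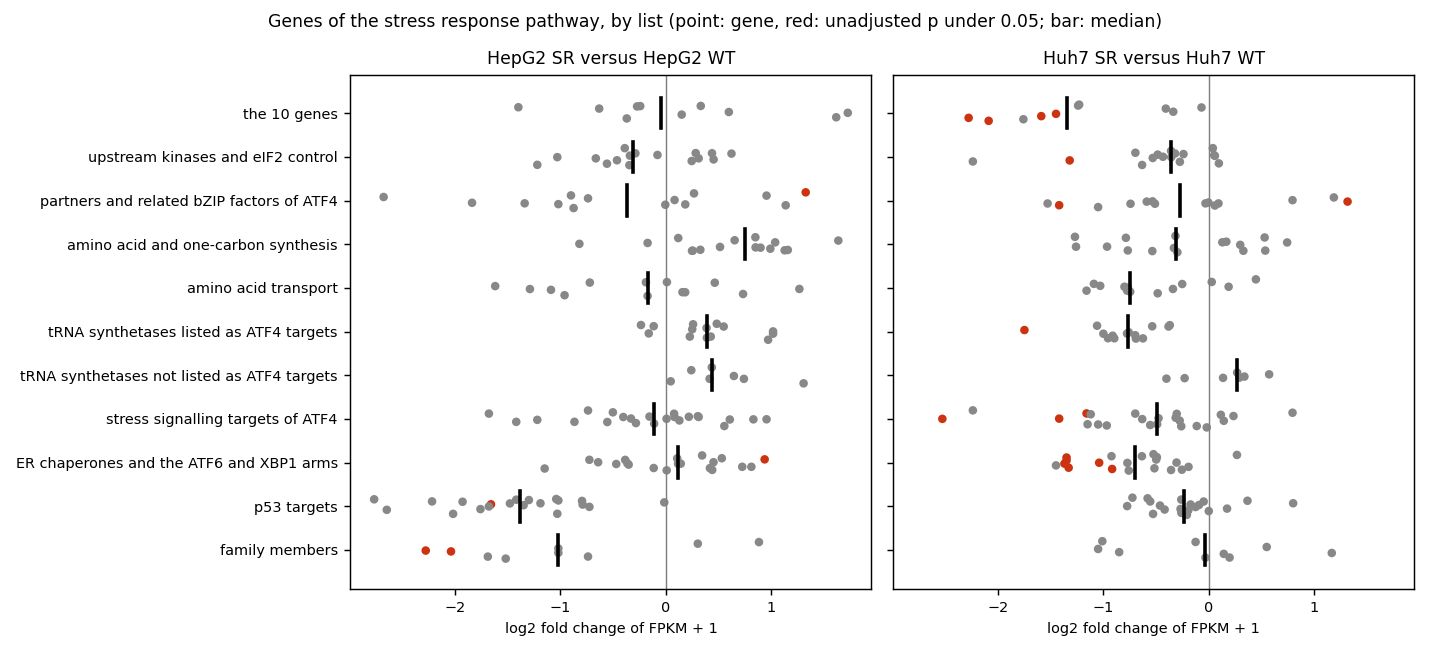
Log2 fold change of FPKM + 1 between SR and WT for the tested genes of each list in HepG2 (left) and Huh7 (right), with 1 point per gene, red where called, and a black bar at the median of the list. In Huh7 the median of the listed tRNA synthetases is -0.77 and that of those not listed is 0.27, a fitted value over replicates in which the latter differed in sign.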

How the data were processed

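Libraries of mRNA were prepared with an NEBNext kit after oligo(dT) enrichment. The authors deposited FPKM values, 1 per Ensembl gene and library, without pooling. The submitters' processing notes name fastp 0.20.0 and GRCh38; the aligner, quantification tool and annotation are not given in the sources used here. The authors tested with edgeR, which needs counts. Among low values of single-transcript genes, 7.22 to 8.38% came within 0.02 of a whole multiple of 1 read (chance gives 4%), so reads were not recovered, depth is unknown and no counting intervals are given.

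FPKM were tested as log2(FPKM + 1), which understates changes of low genes, with limma 3.58.1 (R 4.3.3; lmFit, eBayes with trend) in 1 model with a mean per group and 4 residual degrees of freedom, over 15173 genes with at least 1 FPKM in 2 libraries. Groups came from the labels. Symbols matched 62666 of 63241 identifiers and positions (GENCODE 29, GRCh38) 58228. Promoter windows came from RefSeq (GRCh38.p14), for 9 of the 10 genes. The 10 genes and all lists were chosen with earlier results of these data known. Every one of the 10 was named, up to 3 genes per list and comparison (the largest changes among those called, otherwise among those tested), the 8 genes most like the mean pattern and 1 per gene; SLC7A5, PPP1R15A, GDF15, AARS1, CDKN1A and INHBC are described by level beside them, in part chosen after their values were seen. On simulated data for 15173 genes, the share of genes with a log2 change of 2 that was called came to 86% for HepG2 and 90% for Huh7, and the share with an adjusted p under 0.05 to 15% and 13%. Noise was drawn for each gene and library independently, without the sets of libraries seen here, and only genes of higher level were changed. Of the unchanged genes, 5.5% and 5.72% had an unadjusted limma p under 0.05, whereas 325 and 283 of all 15173 genes did in the real data. The simulated shares therefore do not give the power in these libraries. Other settings tried were a pseudocount of 0.1, a looser or absent filter, TPM scaling, quantile normalization, fits of each comparison alone, the replicate number as a term, an untrended prior, a log2 limit of 1, adjusted p-values and the omission of single libraries.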

Additional observations from a re-analysis of the deposited data

How the results depend on the processing

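Counts of genes called depended on the filter and on single libraries. Calls numbered 325 in HepG2 SR versus WT, 283 in Huh7 SR versus WT, 669 between the WT lines and 92 for the difference in change. At an adjusted p under 0.05 all 4 counts were 0. With a filter at an FPKM of 0.1 the counts were 504 in HepG2 and 254 for the difference in change, and with no filter 587, 554, 1089 and 329 in the order above. Separate fits gave 124 in Huh7 and 1056 between the WT lines and were not possible for the difference in change. With 1 library left out, HepG2 calls ranged from 57 to 1749 (73 without HepG2 WT replicate 1, 1749 without SR replicate 1, 57 without SR replicate 2), Huh7 calls from 154 to 818 (158 and 154 without HepG2 WT replicates 1 and 2, 818 without Huh7 WT replicate 1, 568 without Huh7 SR replicate 1), calls between the WT lines from 171 to 1247 (171 and 308 without HepG2 WT replicates 1 and 2, 1247 without Huh7 WT replicate 2) and calls for the difference in change from 24 to 945 (24 without HepG2 WT replicate 1, 945 and 28 without HepG2 SR replicates 1 and 2, 339 without Huh7 WT replicate 1, 465 without Huh7 SR replicate 1). A lone library was assumed to vary like the other groups. Of the 10 genes, 1 (without Huh7 WT replicate 2) to 6 (without Huh7 WT replicate 1) were then called in Huh7. The cause of these shifts was not tested. Among the 5 similar libraries (chosen after seeing the data, with 1 library in each of 3 groups and 1 residual degree of freedom, so that no call is read from it) the counts were 1777 in Huh7, 2189 between the WT lines and 940 for the difference in change.

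Equal replicate numbers were not taken as pairs, since the labels do not tie them and the deviations of equal numbers correlated at 0.796 for Huh7 WT and SR, 0.125 for HepG2 WT and SR and -0.562 for HepG2 SR and Huh7 SR. With the replicate block 328, 234, 565 and 91 genes were called, and of the 10 genes SESN2, INHBE and DDIT3 were called lower in Huh7 SR and SLC3A2 was not.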
